A study of Homo sapiens with 50 samples.

Results

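The genes described here are 33 known transcriptional targets of the tumor suppressor p53, measured in H1299 cells, a human non-small cell lung carcinoma line that makes no p53 protein. They were chosen from a list of gene symbols that uses none of the measured values, each gene being read from its brightest probe. All 33 were on the array, out of 25940 gene names. The list was read in order of function: the p53 family members TP73 and TP63, 3 genes of the negative feedback on p53, 9 of cell cycle and growth arrest, 11 of death receptors and cell death, 2 of repair and nucleotide supply, 4 of metabolism, mitochondria and autophagy, and 2 encoding a secreted and a surface protein.

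RNA of 50 cultures was hybridized to 50 single-color Agilent whole human genome arrays, with 5 biological replicates in each of 10 groups. H1299 cells (RAD9 normal) were compared with H1299shRAD9 cells (RAD9 depleted), which carry a retroviral vector expressing a short hairpin RNA against RAD9, a gene whose product works in the DNA damage checkpoint. A pair of stable transfectants stood for H1299shRAD9 and were used interchangeably, and the labels used here do not give which one a culture came from. Within each line, control (CTL) cells were sham irradiated, and the 4 other groups came from dishes in which directly irradiated cells received 1 Gy of α particles and shared the medium with bystander cells that were not hit. Bystander positive (BP) cells were those with a raised frequency of micronuclei, which are fragments of chromosomes left outside the nucleus, and the direct cells of the same dishes are called DBP. Bystander negative (BN) cells were those whose micronuclei stayed at the control level, and their direct partners are called DBN. These groups were therefore selected on a damage readout, and all RNA was taken at 4 h.

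In cells with working p53, DNA damage stabilizes the protein, which binds paired decamers in promoters and first introns and raises the transcription of its targets. Products of these genes halt the cell cycle, repair DNA, trigger apoptosis, or, as with MDM2 and PPM1D, turn p53 off again. Many of the same genes are also transcribed under other factors, among them the relatives p63 and p73 and the stress factors ATF4 and CHOP, and can therefore be measured in cells that lack p53.

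Levels are given as log2 of the background-corrected intensity minus the median of the array, so that 1 unit is a 2-fold step, and they are compared only for the same probe. An adjusted p is the Benjamini-Hochberg value over all 20078 features that passed the criterion on background, from limma. A gene is called changed where the adjusted p was under 0.1 and the unadjusted p under 0.006, or under 0.005 between the cell lines. Of the 33 genes, 31 passed the criterion. SPATA18, which is involved in the removal of mitochondria, was well above background on 0 of 50 arrays, and TP63, the epithelial member of the p53 family, on 14 of 50. TP73, which encodes p73, reached it on 44 of 50.

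Keratin and vimentin probes of the carcinoma line (KRT8, KRT18, VIM) were well above background on 50 of 50 arrays, as was PTPRC, a blood cell gene. Of the other genes chosen for other cell types, CD3E reached it on 38 and PECAM1 on 2. PTPRC was higher in H1299shRAD9 CTL (0.73 to 1.75) than in H1299 CTL (−0.52 to 0.98), by 1.20 (adjusted p = 0.0157, limma), and CD3E differed by 0.53 (adjusted p = 0.162). The part of these genes in the differences between the lines was not tested.

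RAD9A, the target of the hairpin, had a level of 4.01 ± 0.13 (SD, n = 5) in H1299 CTL and 3.64 ± 0.19 (SD, n = 5) in H1299shRAD9 CTL. The difference of −0.36 (SE 0.12) was not called (adjusted p = 0.055, limma), and over the 40 other arrays it was −0.13 (adjusted p = 0.498). The arrays lay on 13 slides, 55.4% to 83.4% of probes being well above background. Replicate 2 of H1299 DBP, BP and DBN resembled the other arrays of the line less than most did (median correlation over features 0.957 to 0.969), and these arrays are named below wherever they move a value. No slide held CTL arrays of both lines, so that slide and cell line cannot be told apart among the controls. Few of the 13 slides held any arrays of both lines, so that slide and cell line are also largely confounded over the 40 other arrays.

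Promoters were searched for the p53 decamer on both strands, in the 250 bases before each RefSeq start (GRCh38.p14). Of the 33 genes, 27 had a window, and 6 of these 27 held the decamer: AEN, FAS, FDXR, PLK2, RPS27L and SESN1. Counted by window, that was 15.4% of their 39 windows and 5.57% of the 35116 windows of all genes. A window each of AEN, FAS and GDF15 is shown because their genes gave contrasting values: AEN was higher in H1299shRAD9 in both comparisons of the lines, GDF15 had the widest differences of all the members, and FAS is a classical death receptor target that was called in no comparison. Capitals mark the decamer in AEN and FAS and TATAAA in GDF15, a motif found in 6.80% of all windows.
AEN promoter (chr15:88621090-88621339, plus strand): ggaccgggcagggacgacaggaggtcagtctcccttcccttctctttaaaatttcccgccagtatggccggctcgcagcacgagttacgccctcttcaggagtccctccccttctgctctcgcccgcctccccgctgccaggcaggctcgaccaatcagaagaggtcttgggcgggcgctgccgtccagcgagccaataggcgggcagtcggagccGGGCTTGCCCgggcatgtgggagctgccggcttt
FAS promoter (chr10:88991181-88991430, plus strand): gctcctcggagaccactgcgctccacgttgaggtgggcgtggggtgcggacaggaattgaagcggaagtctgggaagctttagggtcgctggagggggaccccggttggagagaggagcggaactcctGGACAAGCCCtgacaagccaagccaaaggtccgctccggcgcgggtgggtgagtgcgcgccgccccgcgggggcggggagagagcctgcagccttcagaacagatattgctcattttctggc
GDF15 promoter (chr19:18385908-18386157, plus strand): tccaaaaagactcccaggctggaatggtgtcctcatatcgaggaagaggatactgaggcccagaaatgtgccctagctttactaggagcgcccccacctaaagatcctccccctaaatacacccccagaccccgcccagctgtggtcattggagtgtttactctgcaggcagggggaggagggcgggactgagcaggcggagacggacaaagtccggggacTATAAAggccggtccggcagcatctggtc
The decamer of AEN began 34 bases before the start and that of FAS 122 bases before 1 of its 3 starts, and TATAAA of GDF15 began 29 bases before its start. A match is only a description of these letters, and p53 elements that lie in introns, such as those known in MDM2, are outside the windows.

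The first comparison asked which p53 targets differed between the unirradiated lines. Of the 31 genes, 5 were called in H1299shRAD9 CTL against H1299 CTL (16.1%), beside 12.8% of all features. GDF15, CD82, CCNG2 and TP53INP1 were lower in H1299shRAD9, and AEN was higher. The median difference of the 31 genes was −0.07, beside 0.05 over all features, and 9 had an unadjusted p under 0.05. The levels of both CTL groups did not overlap for 3 genes (AEN, TP53INP1 and GDF15), as for 13.1% of all features.

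GDF15, a secreted stress cytokine of the TGF-β superfamily, had the widest gap. Its levels in H1299 CTL were 4.56, 7.42, 3.25, 2.94 and 3.08 in replicates 1 to 5, and in H1299shRAD9 CTL 0.66, 0.39, 2.49, 2.17 and 1.60. Replicates 1 and 2 were the highest of one line and the lowest of the other. The difference was −2.79 (SE 0.77, adjusted p = 0.0329, limma), a 6.92-fold lower level. The call was lost without replicate 1 (−2.51, adjusted p = 0.0777) or replicate 5 (−3.12, adjusted p = 0.0685), and the difference narrowed to −1.73 without replicate 2 (adjusted p = 0.0382) and to −1.63 without the H1299 CTL arrays of replicates 1 and 2 (adjusted p = 0.0322). The RNA came from whole cultures, so fewer expressing cells and less RNA per cell cannot be told apart.

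CD82, a membrane tetraspanin known as a metastasis suppressor, was at 4.58, 4.86, 4.78, 4.89 and 5.32 in H1299 CTL. In H1299shRAD9 CTL it was at 4.68, 4.23, 3.36, 3.45 and 3.68. Replicates 1 and 2 of H1299shRAD9 lay near H1299 and the other 3 well below, so that the groups overlapped. The difference was −1.01 (SE 0.24, adjusted p = 0.0206, limma), and it was no longer called without replicate 3, 4 or 5 (−0.90 to −0.85). CCNG2, an unconventional cyclin that restrains proliferation, was at 2.20, 2.01, 1.42, 1.28 and 0.53 in H1299 CTL and at 0.42, 0.36, 0.61, 0.88 and 0.29 in H1299shRAD9 CTL. The difference was −0.98 (SE 0.27, adjusted p = 0.0326), and a second probe, well above background on 35 arrays, gave −1.32. It was not called without replicate 1, 2, 3 or 4 (−1.12 to −0.78) or without the H1299 CTL arrays of replicates 1 and 2 (−0.57, adjusted p = 0.0877).

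TP53INP1, a stress-induced nuclear protein that promotes apoptosis and autophagy, was at 3.23, 3.32, 3.36, 3.03 and 2.59 in H1299 CTL and at 2.48, 2.26, 1.999, 2.45 and 2.11 in H1299shRAD9 CTL. The lowest H1299 value stood above the highest H1299shRAD9 value. The difference was −0.85 (SE 0.16, adjusted p = 0.0085, limma). AEN, an apoptosis-enhancing nuclease, ran the other way, with 2.39, 2.35, 1.86, 2.28 and 2.40 in H1299 CTL and 2.78, 3.33, 3.09, 3.03 and 2.94 in H1299shRAD9 CTL. The difference was 0.78 (SE 0.14, adjusted p = 0.00626), a 1.71-fold higher level, and the second AEN probe gave 0.41. With the slide as a random block, GDF15 (−2.77, adjusted p = 0.0703) and CCNG2 (−1.003, adjusted p = 0.072) were not called, and CD82, TP53INP1 and AEN were.

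The feedback genes were not called between the controls. MDM2, the ubiquitin ligase that degrades p53, was at 3.47, 2.88, 3.19, 2.90 and 2.73 in H1299 CTL and at 3.06, 3.31, 3.13, 3.18 and 3.21 in H1299shRAD9 CTL. The groups overlapped, with a difference of 0.14 (SE 0.14, adjusted p = 0.496, limma). FAS was at 2.74, 2.51, 2.62, 2.27 and 2.17 in H1299 CTL and at 1.82, 1.99, 2.65, 2.97 and 2.55 in H1299shRAD9 CTL, the groups overlapping. It differed by −0.07 (SE 0.21, adjusted p = 0.852), and GADD45A, a DNA damage-inducible growth arrest gene, by −0.52 (SE 0.29, adjusted p = 0.228).

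**Figure D1:**
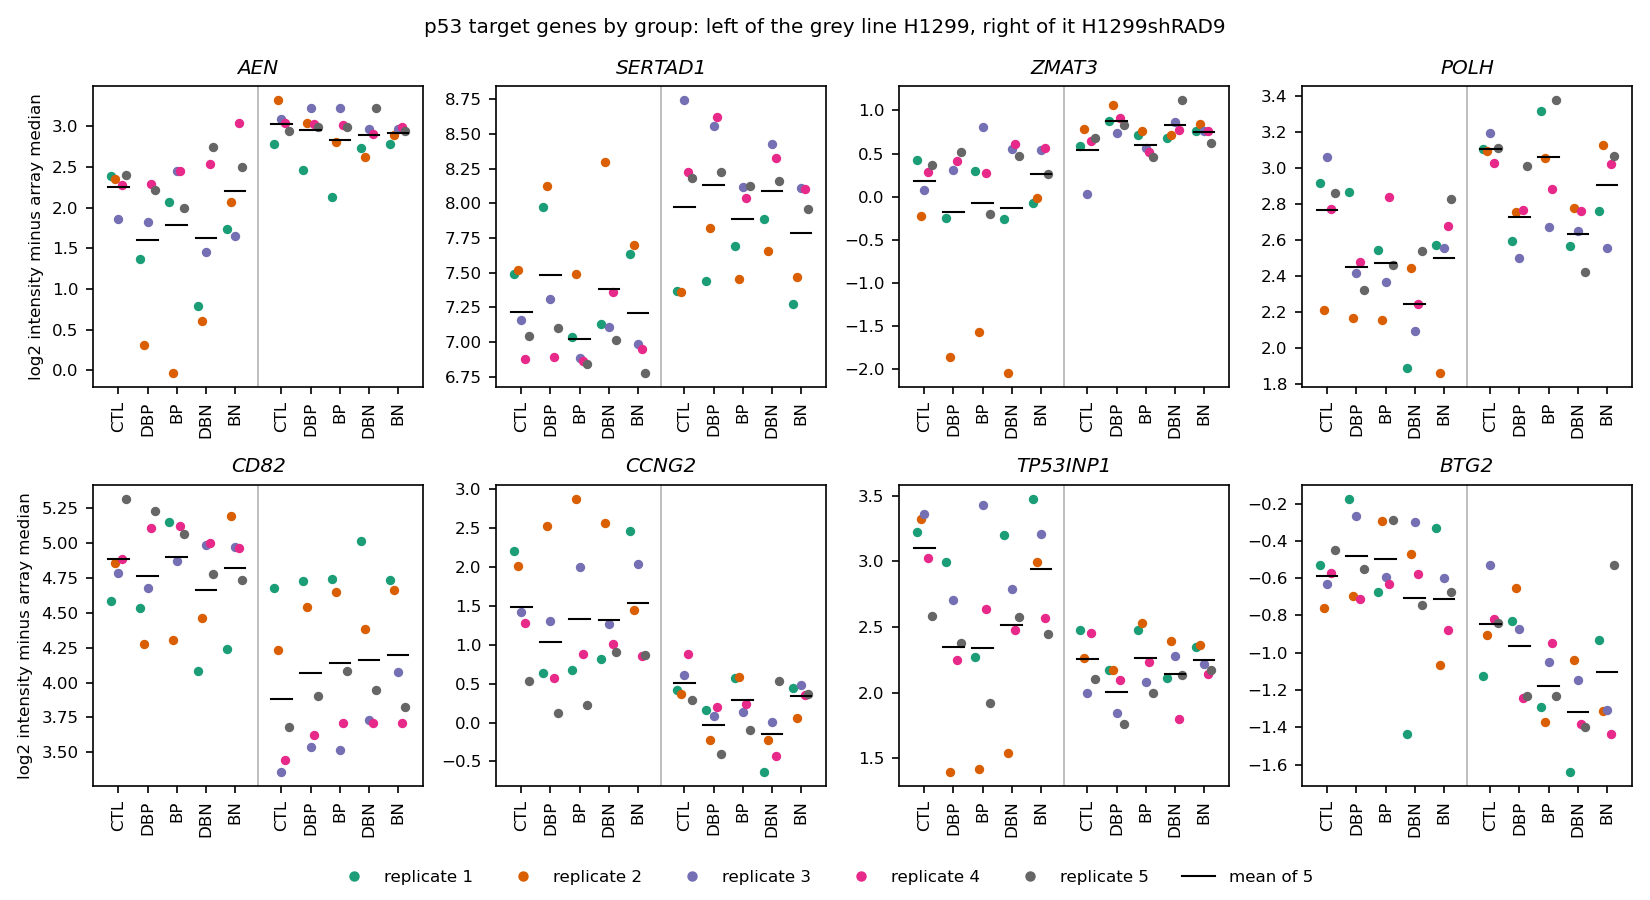
Levels of 8 p53 target genes on all 50 arrays, as log2 intensity minus the array median (vertical axis, its range differing between panels), in the 5 groups of H1299 (left of the grey line) and H1299shRAD9 (right). Points are colored by replicate number and bars are means of 5, and the orange points of AEN, ZMAT3 and TP53INP1 in H1299 DBP, BP and DBN are the lowest of their groups.

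The same contrast was then drawn over the 40 arrays that the control comparison did not use, across DBP, BP, DBN and BN. Here 10 of the 31 genes were called (32.3%), beside 18% of all features, 5 higher and 5 lower in H1299shRAD9. The median difference was −0.02 for the 31 genes and 0.13 over all features, so that the array as a whole was shifted toward H1299shRAD9. GDF15, CCNG2, CD82 and AEN, called between the controls, were called again with the same sign. These calls are not an independent repeat, because the 40 arrays deviated together with the CTL arrays of the same replicate number. The mean correlations were 0.469 to 0.517 in H1299shRAD9 and 0.145 to 0.413 in H1299. Slide and cell line are largely confounded in this contrast as well. BTG2, TP73, PPM1D, POLH, SERTAD1 and ZMAT3 were called here and not between the controls, and TP53INP1 was not called here (−0.37, SE 0.18, adjusted p = 0.129, limma). Whether any gene differed more between the lines after exposure than before it is the test of interaction given below.

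Among the lower genes, GDF15 was at −2.48 (SE 0.59, adjusted p = 0.0022, limma). Over all groups of each line, the replicate number held 90.9% of the GDF15 variance in H1299 and 82.2% in H1299shRAD9. The medians of all features were 31.3% and 35.4%. Same-numbered arrays were thus close to repeats for GDF15, so that this SE and adjusted p may overstate the precision. The H1299 levels were 5.66, 8.70, 3.21, 3.92 and 3.55 in DBP, 3.16, 8.59, 3.11, 3.10 and 2.93 in BP, 4.67, 8.60, 3.18, 3.23 and 3.75 in DBN, and 6.84, 8.87, 3.33, 2.71 and 2.82 in BN. The H1299shRAD9 levels were 0.80, 0.73, 3.99, 3.01 and 2.30 in DBP, 1.25, 0.63, 3.71, 2.74 and 2.54 in BP, 1.29, 0.73, 3.57, 2.75 and 3.56 in DBN, and 0.89, 0.75, 2.59, 2.69 and 3.78 in BN. Replicate 2 of H1299 was at 8.59 or more in all 4 groups, and replicates 3 to 5 of both lines overlapped. Without replicate 2 the difference was −1.11 and no longer called (adjusted p = 0.0455), and without the H1299 arrays of replicates 1 and 2 it was −1.02 (adjusted p = 0.0402).

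DDIT3, which encodes CHOP, was high with GDF15 in replicate 2 of H1299. It was at 6.80, 5.85, 5.67, 6.25 and 6.92 in replicate 2 of H1299 CTL, DBP, BP, DBN and BN, against 2.34 to 4.83 on the other 20 H1299 arrays. In replicate 1 of the same groups DDIT3 was at 3.40, 2.88, 2.43, 2.34 and 4.83. GDF15 was at 4.56, 5.66, 3.16, 4.67 and 6.84 there, so that DDIT3 did not follow it in DBP and DBN. Over 36 targets of ATF4 and CHOP that are not among the 33 genes, the mean deviation from each gene's 50-array mean was 1.36 to 1.87 in replicate 2 of H1299, −0.48 to 1.36 in replicate 1 and −0.66 to −0.05 in replicates 3 to 5. In H1299shRAD9 it ran from −0.81 to 0.52. Between the controls 4 of these 36 genes were called lower and 0 higher (11.1%, not above the 12.8% of all features), with a median of −0.50 beside 0.05. The part of this list in the GDF15 difference was not tested.

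**Figure D2:**
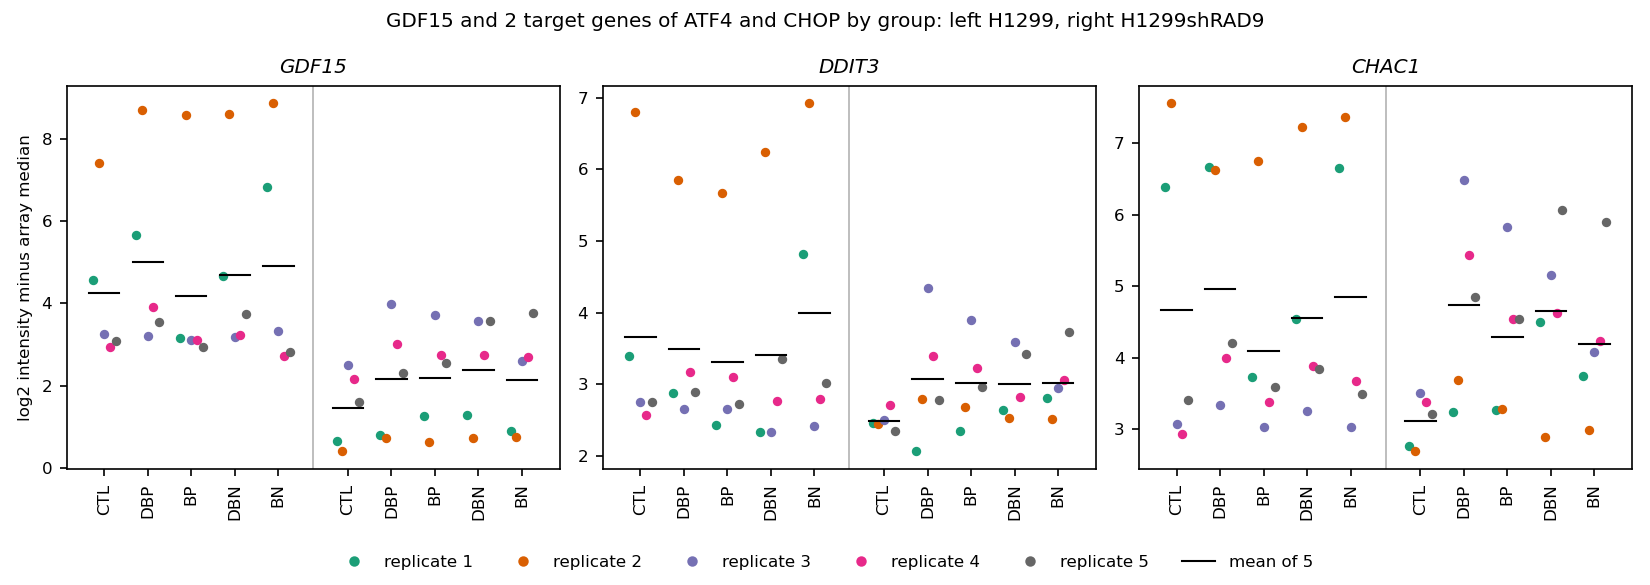
Levels of GDF15 and of DDIT3 and CHAC1, both targets of ATF4 or CHOP, in the 5 groups of H1299 (left) and H1299shRAD9 (right), as log2 intensity minus the array median, with replicates colored and means of 5 as bars. Replicate 2 of H1299 (orange) is the highest GDF15 point in every H1299 group, from 7.42 to 8.87.

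Of the other lower genes, CCNG2 differed by −1.19 (SE 0.25, adjusted p = 0.000489, limma), 2.29-fold, the 4 group differences lying between −1.46 and −1.05. This was the only lower gene called under all 16 alternative settings. CD82 was at −0.65 (SE 0.16, adjusted p = 0.00366, limma). The replicate number held 89.2% of the CD82 variance in H1299shRAD9 and 38.8% in H1299, so that its SE and adjusted p may also overstate the precision. BTG2, an antiproliferative early response gene, was at −0.54 (SE 0.14, adjusted p = 0.00486), and TP73 at −0.46 (SE 0.15, adjusted p = 0.0263). CD82 was not called without replicate 3, 4 or 5 (−0.55 to −0.47), BTG2 not without replicate 3 (−0.52, adjusted p = 0.0481), and TP73 not without replicate 1, 2, 4 or 5 (−0.51 to −0.33) and at −0.26 without the H1299 arrays of replicates 1 and 2 (adjusted p = 0.158). With normexp background correction CD82 (−0.42) was not called and BTG2 was at −0.29 (adjusted p = 0.0214), and after quantile normalization BTG2 was not called (−0.46). TP73 is a dim gene, well above background on 3 to 5 arrays of each H1299shRAD9 group. Its levels ran from −1.09 to 0.18 on these arrays of H1299 and from −1.67 to −0.61 on those of H1299shRAD9, and the ranges overlapped. A second TP73 probe, well above background on 15 arrays, gave −0.21 (SE 0.27), so that the call rests on 1 probe.

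AEN led the higher genes with 1.09 (SE 0.24, adjusted p = 0.00077, limma). In H1299 it was at 1.37, 0.31, 1.82, 2.29 and 2.22 in DBP, 2.07, −0.03, 2.44, 2.44 and 1.99 in BP, 0.78, 0.61, 1.46, 2.53 and 2.74 in DBN and 1.73, 2.07, 1.65, 3.04 and 2.49 in BN. In H1299shRAD9 it ran from 2.13 to 3.22 over the 20 arrays. The second AEN probe gave 0.53. The H1299 levels were more spread than those of H1299shRAD9, and without the H1299 arrays of replicates 1 and 2 the difference was 0.64 (adjusted p = 0.0034). SERTAD1, a regulator of CDK4 and E2F activity, was at 0.70 (SE 0.15, adjusted p = 0.000577), with levels of 6.78 to 8.30 in H1299 and 7.27 to 8.62 in H1299shRAD9. The replicate number held 65.0% of the SERTAD1 variance in H1299 and 77.6% in H1299shRAD9, so that its SE and adjusted p may also overstate the precision. Over all groups, its replicates 1 and 2 were at 7.03 to 8.30 in H1299 and 7.27 to 7.89 in H1299shRAD9. Replicates 3 to 5 were at 6.78 to 7.36 and 7.96 to 8.75. AEN and SERTAD1 were called under all 16 alternative settings.

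ZMAT3, a zinc finger RNA-binding protein that mediates part of the p53 growth arrest, was at 0.80 (SE 0.22, adjusted p = 0.00833, limma). Replicate 2 of H1299 DBP, BP and DBN, at −1.87, −1.57 and −2.05, lay far below the other H1299 levels of −0.26 to 0.80. Without these 3 arrays the difference was 0.49 (adjusted p = 0.00107), without replicate 2 of both lines 0.44, with normexp 0.53, and without the H1299 arrays of replicates 1 and 2 it was 0.34 (adjusted p = 0.00884). It was not called without replicate 1 (0.79, adjusted p = 0.0404). POLH, the translesion polymerase η, was at 0.42 (SE 0.12, adjusted p = 0.0115) and was not called without replicate 2 or 5 (0.33 and 0.41). PPM1D, the phosphatase WIP1 that resets the checkpoint, was at 0.38 (SE 0.12, adjusted p = 0.0221) and was not called without replicate 1, 3, 4 or 5 (0.32 to 0.35). Its second probe gave 0.20, with an unadjusted p of 0.0137 by limma that missed the threshold. Under the 75th percentile scaling and in the values processed by the authors, POLH (0.32 and 0.30) and ZMAT3 (0.70 and 0.65) were not called.

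**Figure D3:**
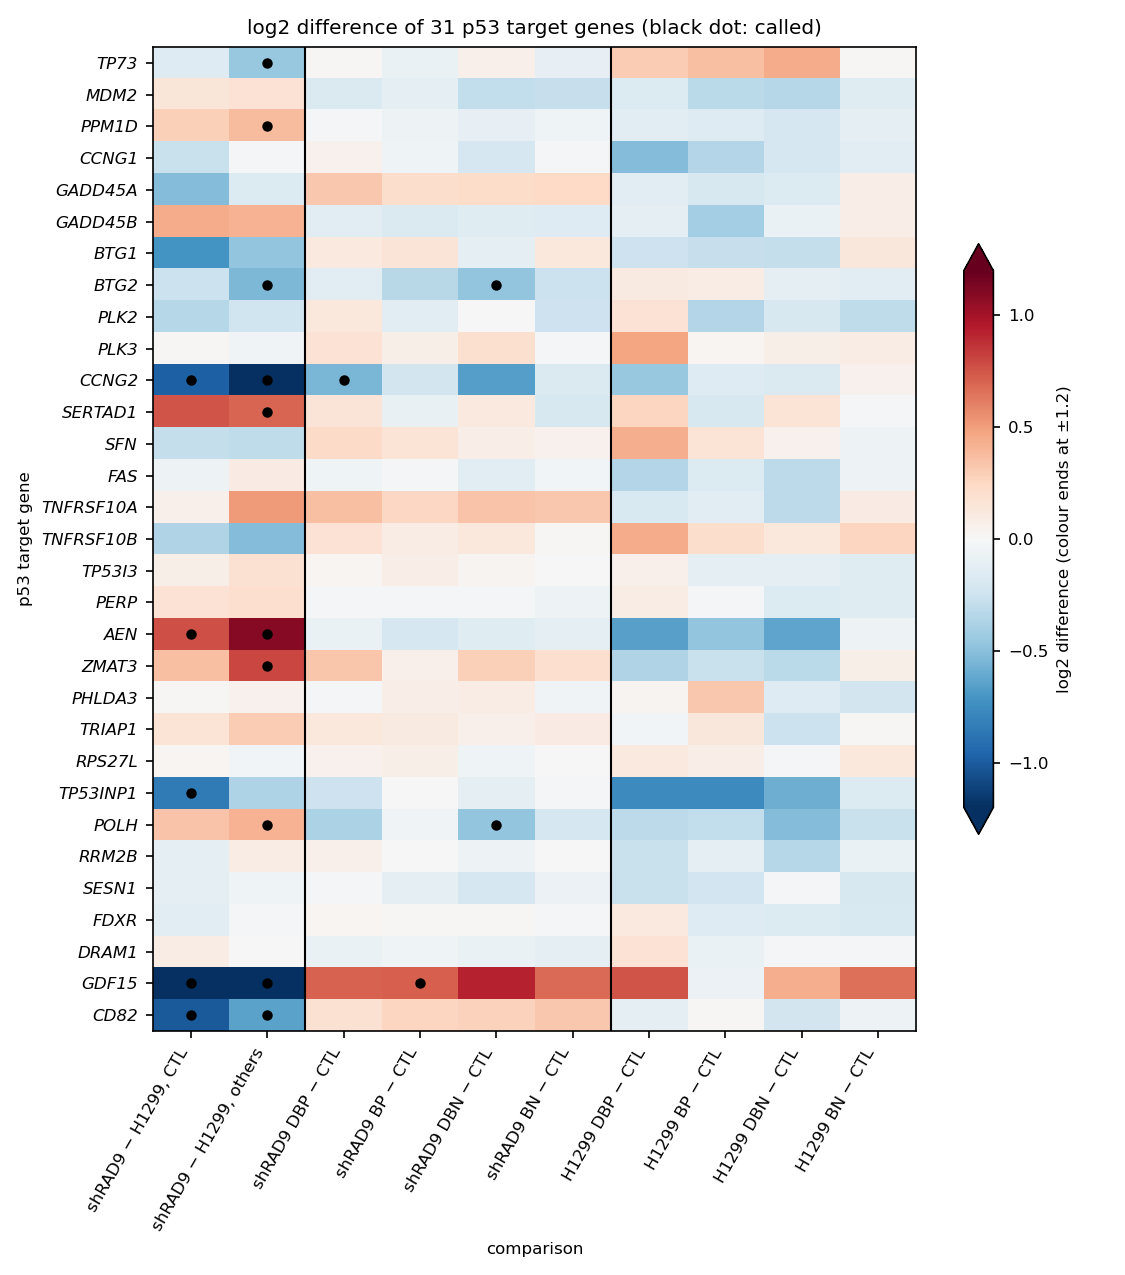
Differences of the 31 measured p53 target genes (rows, in order of function) in 10 comparisons (columns), as log2 differences on a color scale, with a black dot where the gene was called. The 2 columns on the left compare the cell lines and hold 15 of the 19 dots, the next 4 compare H1299shRAD9 with its controls and hold 4, and the 4 on the right compare H1299 with its controls and hold 0.

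The other 20 genes with values were called in neither comparison of the lines. BTG1, an antiproliferative relative of BTG2, came nearest among the controls, at −0.72 (adjusted p = 0.0515, limma). GADD45B, a stress sensor kin to GADD45A, gave 0.44 between the controls and 0.42 over the other arrays. Differences were small in both comparisons for PERP (0.17 and 0.20), PHLDA3, an inhibitor of AKT signaling (0.02 and 0.05), RPS27L, a ribosomal protein paralog (0.03 and −0.03), RRM2B, a ribonucleotide reductase subunit (−0.11 and 0.09), FDXR, a mitochondrial reductase (−0.12 and −0.02) and SESN1, a sestrin of the antioxidant response (−0.12 and −0.05). The death receptors differed in sign over the 40 arrays, with 0.51 for TNFRSF10A and −0.52 for TNFRSF10B, neither of them called.

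The central comparison asked whether exposure raised p53 targets in cells that lack p53. In H1299shRAD9, 1 of 31 genes was called in DBP against CTL (beside 1.32% of all features), 1 in BP (1.59%), 2 in DBN (2.84%) and 0 in BN (0.0299%). GDF15 in BP was the only one that rose, and CCNG2, BTG2 and POLH fell. In H1299, 0 of 31 genes were called in DBP (0.0349% of all features), BP (0%), DBN (0.00996%) or BN (0%) by limma, while 6, 1, 1 and 1 had an unadjusted p under 0.05. In H1299shRAD9 those numbers were 7, 4, 7 and 5. The median of all features in H1299 DBN was −0.11, and that of the 31 genes −0.17.

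The intervals of the differences bound what could have been missed. In each line 30 of the 31 genes had 95% upper limits under a 2-fold rise in all 4 comparisons with CTL, the exception being GDF15, with a limit of up to 2.81-fold. Under the 75th percentile scaling TP73 passed 2-fold as well, which left 29 of the 31 over both lines. MDM2 had negative differences in all 8 comparisons (−0.34 to −0.11), its upper limit being at most 1.20-fold, and negative ones in all 8 under each of 3 other settings of scale or background. In H1299shRAD9 DBN its levels were 2.44, 3.11, 2.97, 2.80 and 3.11 (−0.29, SE 0.10, adjusted p = 0.243, limma). PPM1D, FAS, AEN, POLH and SESN1 also had negative differences in all 8 comparisons. Of all features, 37.6%, 26.4% and 34.5% were higher than CTL in H1299 BP, DBN and BN, and 48% to 58% in the other comparisons with CTL. Upper limits were at most 1.20-fold for FAS, 1.24-fold for PPM1D, 1.18-fold for POLH and 1.28-fold for AEN. The limit of GADD45A was 1.57-fold, with 5.54, 6.13, 6.40, 6.004 and 5.83 in H1299shRAD9 DBP against 5.60, 5.69, 5.44, 5.79 and 5.78 in CTL (0.32, SE 0.15, adjusted p = 0.37). The 8 comparisons share the 2 control groups, 4 to each.

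None of the 6 genes whose windows held the decamer was called after exposure, AEN and FAS among them. With 0% to 2.84% of all features called in the 8 comparisons with CTL, 6 genes are too few to differ from that share. TNFRSF10B, the TRAIL death receptor DR5, had differences of 0.01 to 0.44, largest in H1299 DBP (0.44, SE 0.18, higher in 5 of 5 pairs, adjusted p = 0.795, limma), but 2 of the 8 were negative under another background correction. PLK3, a stress-activated polo-like kinase, differed by 0.47 in H1299 DBP (SE 0.16, 5 of 5 pairs, adjusted p = 0.795). Pairs of the same sign in 5 of 5 replicates were found for 35.5% of the 31 genes in H1299shRAD9 DBP (7 up, 4 down), beside 13.4% of all features. In H1299 DBP the shares were 19.4% and 8.99%, and in the other 6 comparisons with CTL 3.23% to 22.6% and 5.23% to 14.7%.

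**Figure D4:**
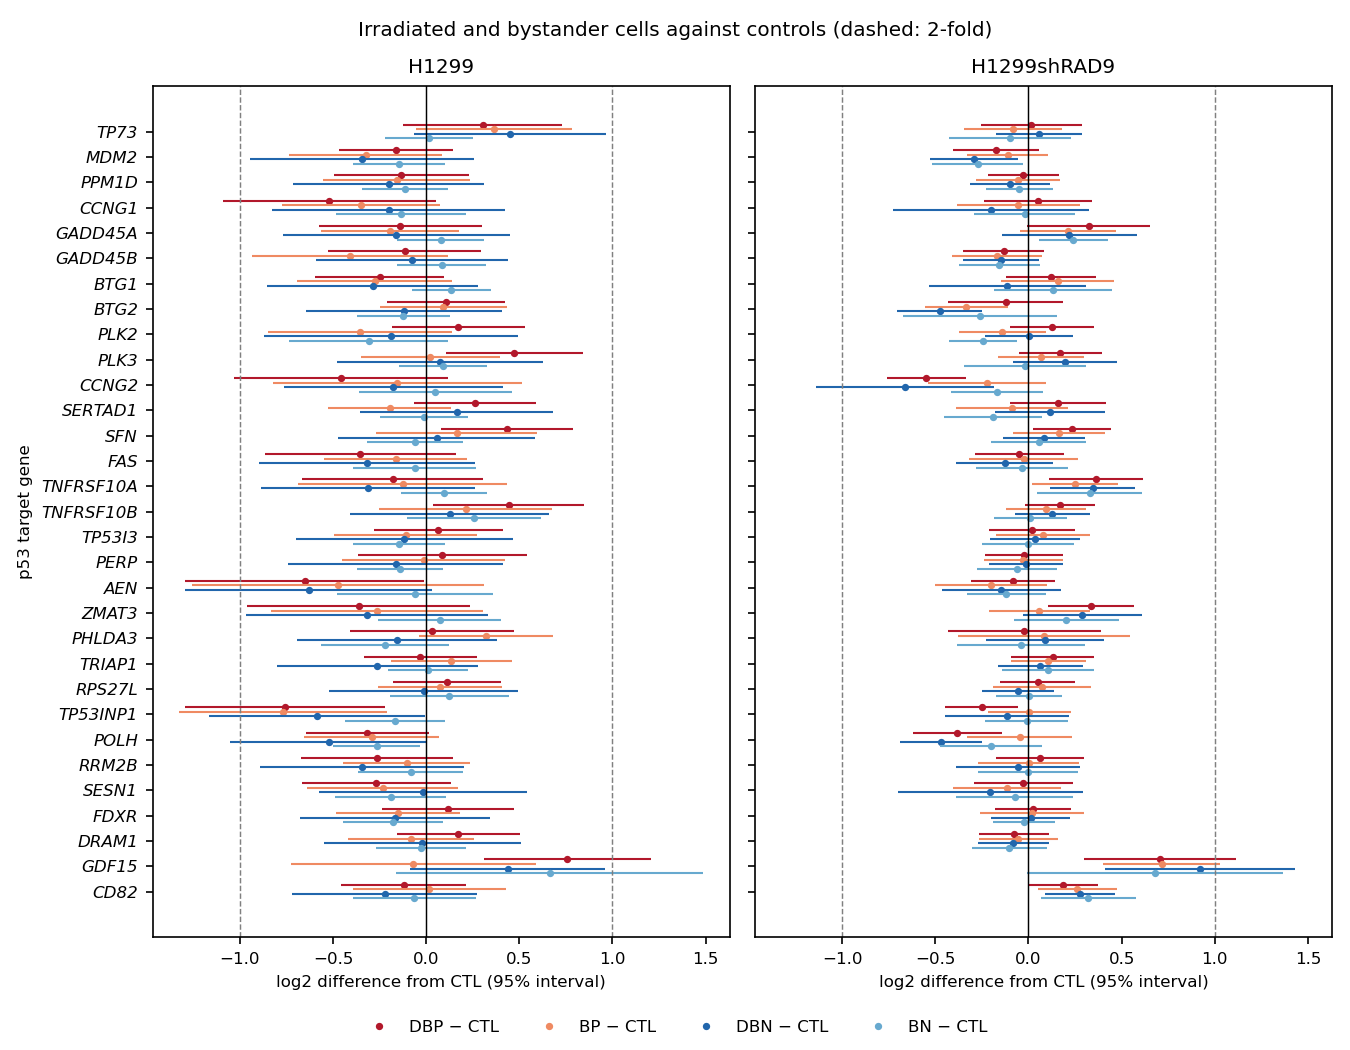
Differences of irradiated and bystander groups from CTL for the 31 measured p53 target genes in H1299 (left) and H1299shRAD9 (right), as points with 95% intervals on a log2 axis, the dashed lines marking 2-fold. In both panels only GDF15 has an interval that crosses the right-hand dashed line.

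GDF15 was higher than CTL in 5 of 5 pairs in each H1299shRAD9 group. The pair differences in BP were 0.60, 0.23, 1.22, 0.58 and 0.95, with a mean of 0.72 (SE 0.14, adjusted p = 0.0597, limma), a 1.64-fold rise. Pairs 4 and 5, which shared a slide, gave 0.58 and 0.95. The GDF15 mean was 0.71 in DBP (adjusted p = 0.143), 0.92 in DBN (adjusted p = 0.104) and 0.68 in BN (adjusted p = 0.373), none of them called. In DBN it was called by limma with the 1.3-fold criterion (adjusted p = 0.0891) and in the authors' processed values (0.92, adjusted p = 0.0959). In DBP it was called without replicate 1 (0.85, adjusted p = 0.0893). The BP call was lost without replicate 1, 2, 4 or 5 (0.66 to 0.84). Of the 36 ATF4 and CHOP targets, 34 had a higher mean in H1299shRAD9 BP than in CTL, as had 54.5% of all features. Against the same CTL arrays, 35 were higher in DBP, 33 in DBN and 34 in BN (58%, 48% and 51.3% of all features). The medians of the list there were 0.35, 0.25 and 0.21. In H1299 30, 4, 19 and 34 were higher in DBP, BP, DBN and BN (54.7%, 37.6%, 26.4% and 34.5% of all features). In H1299shRAD9 BP, 4 of the 36 were called higher (CHAC1, ASNS, TRIB3 and ADM2), with a median of 0.24. That was 11.1% beside the 1.59% of all features given above, and the part of this list in the GDF15 value was not tested. In H1299, GDF15 differed by 0.76 in DBP (SE 0.20, 4 of 5 pairs higher, adjusted p = 0.65) and by −0.07 in BP (SE 0.29, adjusted p = 0.979).

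CCNG2 fell in H1299shRAD9 DBP, from 0.42, 0.36, 0.61, 0.88 and 0.29 in CTL to 0.16, −0.22, 0.09, 0.20 and −0.40. All 5 pairs were lower, and pairs 4 and 5 on shared slides gave −0.68 and −0.69. The mean was −0.55 (SE 0.09, adjusted p = 0.0621, limma), and without replicate 2, 3, 4 or 5 the call was lost (−0.55 to −0.51), as it was with normexp background correction (−0.36). A second CCNG2 probe gave −0.57. The CCNG2 difference was −0.66 in DBN (SE 0.21, lower in 4 of 5 pairs, adjusted p = 0.19), −0.22 in BP and −0.17 in BN, and in H1299 it lay between −0.46 and 0.05.

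BTG2 fell in H1299shRAD9 DBN, from −1.13, −0.90, −0.53, −0.82 and −0.84 in CTL to −1.64, −1.04, −1.14, −1.38 and −1.40. The mean difference was −0.48 (SE 0.10, adjusted p = 0.0766, limma), lower in 5 of 5 pairs, and the pair on a shared slide gave −0.51. With normexp background correction it was −0.30 and not called. POLH fell in the same comparison from 3.11, 3.09, 3.20, 3.03 and 3.11 to 2.57, 2.78, 2.65, 2.76 and 2.42, and the groups did not overlap. The mean difference of POLH was −0.47 (SE 0.09, adjusted p = 0.0722), with −0.54 in the pair on a shared slide. The second POLH probe did not follow the first and gave 0.06 (SE 0.21, well above background on 46 arrays), so that the value rests on 1 probe. BTG2 and POLH both lost their calls when any 1 replicate was left out (−0.56 to −0.42), and without replicate 5 CCNG2 (−0.89) and GDF15 (0.66) were called in their place.

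The difference between the lines in the response itself was tested as an interaction. By limma, 0 of 31 genes were called for DBP (0% of all features), BP (0%), DBN (0.0149%) or BN (0%), with 1, 2, 2 and 0 at an unadjusted p under 0.05 and adjusted p values of at least 0.635. In the DBN interaction the median of all features was 0.11. The largest interaction was that of GDF15 in BP, at 0.79 (SE 0.37, adjusted p = 0.75), with a 95% interval from −0.02 to 1.59. TP53INP1 in BP gave 0.77 (SE 0.30, adjusted p = 0.75): its difference was −0.77 (SE 0.25, adjusted p = 0.823) in H1299, where replicate 2 was at 1.42, and 0.00 (SE 0.10, adjusted p = 0.992) in H1299shRAD9.

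Directly irradiated cells were also set against the bystander cells of their dishes, a comparison without controls. In H1299shRAD9, 0 of 31 genes were called in DBP against BP (0.0797% of all features) or in DBN against BN (0.0747%), and in H1299 0 were called in DBP against BP (0%) or in DBN against BN (0.00498%). Unadjusted p values under 0.05 numbered 5, 4, 4 and 1 by limma. Direct minus bystander, POLH gave −0.33 (SE 0.11, adjusted p = 0.939) and −0.27 (SE 0.12, adjusted p = 1) in H1299shRAD9, and CCNG2 −0.32 and −0.49. PLK2, a polo-like kinase induced by stress, gave 0.27 and 0.25 in H1299shRAD9 and 0.53 in H1299 DBP (SE 0.14, 5 of 5 pairs, adjusted p = 0.656).

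Arrays of the same replicate number resembled each other more than arrays of the same treatment. Same-numbered arrays often shared a slide, as did replicate 2 of H1299 CTL, DBP, BP and BN and replicate 3 of CTL, DBP, DBN and BN. Slide and replicate number are thus partly confounded, and the part of the slide in the shares below was not tested. Over the 25 H1299 arrays, the replicate number accounted for a median of 41.3% of the variance of the 31 genes and the condition for 12.03%, and over the 25 H1299shRAD9 arrays for 43.1% and 7.38%. All features had medians of 31.3% and 11.3% in H1299 and 35.4% and 8.60% in H1299shRAD9. The replicate share exceeded the condition share for 26 of 31 genes in H1299 (83.9%, beside 80.3% of all features) and for 25 of 31 in H1299shRAD9 (80.6%, beside 82.7%). GDF15 stood at 90.9% in H1299 and 82.2% in H1299shRAD9. In H1299shRAD9 CD82 reached 89.2%, DRAM1, a lysosomal protein of autophagy, 88.9%, and TP53I3, an oxidoreductase of the p53 apoptosis pathway, 88.1%. The 6 genes led by condition in that line were POLH (50.2%), CCNG2 (46.1%), ZMAT3 (40.2%), PLK2 (35.8%), BTG2 (33.6%) and MDM2 (24.7%).

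**Figure D5:**
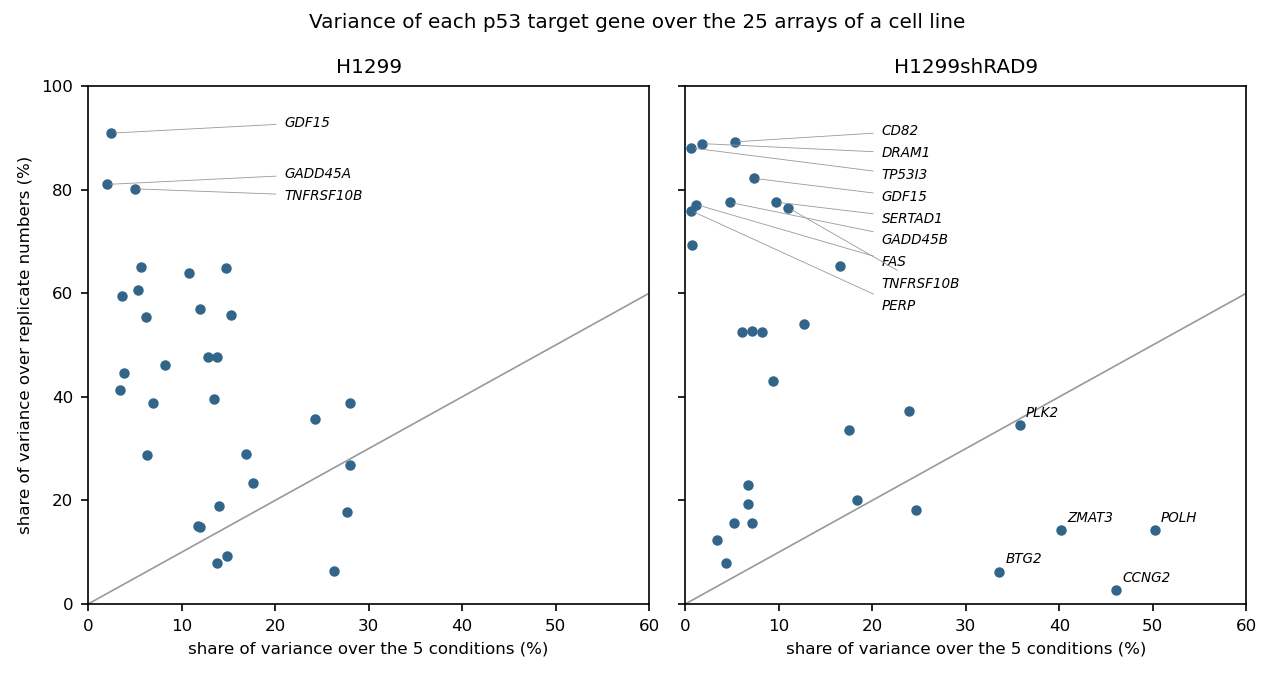
Share of the variance of each of the 31 measured p53 target genes that lay between replicate numbers (vertical axis, %) and between the 5 conditions (horizontal axis, %) over the 25 arrays of H1299 (left) and H1299shRAD9 (right). Points above the grey line of equality, 26 in H1299 and 25 in H1299shRAD9, had more variance between replicate numbers.

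The replicate numbers of H1299shRAD9 separated 8 of the 31 genes completely (25.8%), as they did 9.2% of all features. Over all 25 arrays, replicates 1 and 2 (10 arrays) held GDF15 levels of 0.39 to 1.29 and replicates 3 to 5 (15 arrays) 1.60 to 3.99. CD82 ran the other way, with 4.23 to 5.02 and 3.36 to 4.09. DRAM1 was at 3.10 to 3.33 and 3.48 to 3.91, and TP53I3 at 6.01 to 6.54 and 5.39 to 5.81. GADD45B, SERTAD1, TNFRSF10B and PERP, a membrane protein of desmosomes and apoptosis, were also separate, all of them lower in replicates 1 and 2. This division was seen in the values and was given no test, and whether it follows the pair of transfectants or the slides was not tested.

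Other genes of the pathway came from lists drawn up by function. Of 42 measured further p53 targets, 5 were higher and 5 lower in H1299shRAD9 CTL than in H1299 CTL (23.8%, beside the 12.8% given above). CDKN1A, the cell cycle inhibitor p21 and a standard p53 target, was lower by −0.88 (SE 0.16, adjusted p = 0.00709, limma) and DDIT4, an inhibitor of mTOR signaling, by −1.91. CDKN1A was dim in H1299shRAD9 CTL, well above background on 3 of 5 arrays, so that differences from that group are uncertain in size. Over the 40 other arrays CDKN1A gave −0.59 (SE 0.29, adjusted p = 0.135) and was not called, and 6 genes of the list were higher and 3 lower (21.4%, beside the 18% given above). Of 21 regulators of p53, 2 were higher (CREBBP and TP53RK) and 2 lower (KAT5 and TP53INP2) between the controls (19%). After exposure CDKN1A gave 1.34 in H1299shRAD9 DBP (SE 0.35, adjusted p = 0.15), from levels of −0.85, −0.93, −0.30, 1.71 and −1.14 against −1.98 to −1.41 in CTL, with replicate 4 far above the others. In the other 7 comparisons with CTL it gave 0.26 to 0.61 and was not called. By limma, 0 of the 42 targets and 0 of the 21 regulators were called after exposure in either line.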

How the data were processed

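Total RNA of each culture was labeled with Cy3 and hybridized to Agilent 4x44K arrays. The authors scanned the arrays, and per the file headers Feature Extraction 11.5.1.1 subtracted the local background to give the processed intensity of each of 44495 spots. The authors also deposited processed log2 values, here an alternative, whose offset from the array median is not given in the sources used here. From the deposited intensities, log2 values were taken, the median of each array was subtracted, 18094 spots marked as outliers were left out and spots of 1 probe were averaged. Features marked as outliers or not well above background on 25% or more of the arrays were dropped, which left 20078. Linear models were fitted with limma 3.58.1 in R 4.3.3 over all features, with Benjamini-Hochberg adjustment, following the false discovery rate of 10% in the study's methods. The replicate number was a block within each line, as the study paired its samples, and CTL was compared between lines without it. For genes whose replicate share of the variance was far above the median of all features, the SE and adjusted p between the lines after exposure may overstate the precision. Same-numbered arrays deviated together with mean correlations of 0.469 to 0.517 in the 4 H1299shRAD9 comparisons with CTL (5 of 5 pairs over 0.1 in each) and of 0.145 to 0.413 in those of H1299 (3 of 5 pairs over 0.1 in BP and DBN). Replicates were labeled biological. The number of arrays, 5 a group, limits the precision. The fits were tested on simulated data.

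The 33 genes, the other gene lists and the tests were chosen with earlier results of these data known. The genes described singly were those called in any of 18 comparisons (at most 12, by adjusted p), with MDM2, GDF15, GADD45A, BTG2, FAS and TP73. Their values on each array are given for the groups a result turns on, and others as ranges or differences. Alternatives were other scalings, background corrections and criteria, blocks on replicate or slide, and leaving out each replicate. Some results of the genes measured are not reported here.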

Additional observations from a re-analysis of the deposited data

Results flagged for a closer look

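In 15 of 140 groups of 5 arrays tested over 14 genes, the highest or lowest array lay apart from the rest by Dixon's ratio, where chance gives about 1 in 20. Of these, 9 were replicate 2 of H1299. GDF15 was at 8.59 in BP (others 2.93 to 3.16) and 8.60 in DBN (3.18 to 4.67). GADD45A was at 7.13 in BP (others 5.40 to 5.90) and 7.42 in BN (5.75 to 6.20). PPM1D was at 3.80 in DBP (others 2.56 to 2.85), and in DBN CCNG2 was at 2.56 (0.82 to 1.27) and SERTAD1 at 8.30 (7.02 to 7.36). AEN was low at −0.035 in BP (others 1.99 to 2.44) and POLH at 1.86 in BN (2.56 to 2.83).

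Elsewhere in H1299, MDM2 was at 3.44 in replicate 1 of BN (others 2.68 to 2.87) and AEN at 1.86 in replicate 3 of CTL (2.28 to 2.40). In H1299shRAD9, MDM2 was at 2.57 in replicate 1 of DBP (others 3.02 to 3.16) and 2.49 in replicate 3 of BN (2.94 to 3.07), GADD45A at 6.05 in replicate 5 of BN (5.84 to 5.87) and ZMAT3 at 0.036 in replicate 3 of CTL (0.58 to 0.79).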

How the results depend on the processing

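Of 281 recalculations of the 19 called differences, 200 kept the call, 81 kept the direction and lost it, and 0 changed sign. Between the controls, the 5 calls became 3 after quantile normalization, 3 with no background criterion, 3 with the slide as a random block and 3 to 5 without 1 replicate. The replicate block gave 4, GDF15 losing its call (adjusted p = 0.0787, limma), while same-numbered CTL arrays of the lines did not deviate together (mean correlation −0.02), so that the numbers give no pairing there. Over the other 40 arrays, the 10 calls became 16 with no replicate block and 16 with a replicate block shared by both lines, and 7 to 9 without 1 replicate. In H1299shRAD9 DBP, the 1 call became 0 with normexp background correction, with no background criterion and with no replicate block, and 0 to 3 without 1 replicate. In BP, the 1 call became 0 under 75th percentile scaling, with no background criterion, in the authors' values and with no replicate block, and 0 to 1 without 1 replicate. In DBN, the 2 calls became 1 with normexp, 1 after quantile normalization, 0 with no background criterion, 1 with no replicate block and 0 to 2 without 1 replicate. The cause was not tested. The 13 other comparisons kept 0 calls under every alternative run. The 1.3-fold criterion tested 25 of the genes and the authors' values 21. Leaving out the H1299 arrays of replicates 1 and 2, or replicate 2 of H1299 DBP, BP and DBN, was chosen after seeing the data, and gave 6 calls between the controls and 10 over the other arrays.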
